A study of Mus musculus with 6 samples.

Results

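The Hox cluster genes were examined in mouse embryo fibroblasts, cultured cells grown out of embryos. A member was any gene whose platform symbol, the only one of its probe set, was Hox followed by a cluster letter and a paralog number. The rule found 31 genes of 12393 on the array, with 9 in the Hoxa cluster, 9 in Hoxb, 6 in Hoxc and 7 in Hoxd. No level was required for membership, and a gene with several probe sets took the one of highest mean level. The other 8 of the 39 mouse Hox genes in the RefSeq table were not analysed here.

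RNA from 6 fibroblast lines was hybridised to 6 Affymetrix arrays. In the unstable group were 2 lines of genotype BubR1 H/H, a hypomorphic state of a protein that delays anaphase until chromosomes are attached. The third unstable line was CDC20 AAA/AAA, in which CDC20, an activator of the anaphase-promoting complex, is mutated. The stable group held 2 BubR1 +/+ lines and 1 CDC20 +/+ line, and in every line the locus that does not name its pair was wild type. All 6 lines were cultured for 2 passages in DMEM with 10% FCS and 5 mM glutamine at 37 degrees and had the same treatment, and the labels give no embryo age or strain. Each of the numbers 9515, 9938 and 10074 in the sample names is shared by an unstable and a stable line, which gives the 3 pairs used below. Pairs 9515 and 9938 are BubR1 lines and pair 10074 is the CDC20 lines. Each line was measured once, and no label says which embryos the lines derive from. The p-values therefore cover the spread between these lines only.

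Hox genes encode homeodomain transcription factors that give cells their position along the body and limb axes. Within each cluster the gene order follows the order of expression, so that low paralog numbers act toward the head and high numbers toward the tail and the far end of the limb. Fibroblasts in culture are known to keep much of the Hox pattern of the site they came from. HOX proteins bind DNA with PBX and MEIS partners, Polycomb and MLL complexes hold the genes silent or active, and retinoic acid induces many of them.

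Values below are log2 GCRMA levels as the authors deposited them. They are given in the order unstable, then stable line of pairs 9515, 9938 and 10074. Probe sets bind with different strength, so levels of different genes are not ranked. A gene was tested if it reached log2 4 on at least 3 arrays, which 20 members and 8382 genes in all did. The tests were limma fits over all 8382 genes, with p-values adjusted over them by Benjamini-Hochberg and a threshold of 0.05.

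The arrays had medians of 6.156 to 6.196, and 64.2% to 64.7% of probe sets reached log2 4. Bub1b, the gene for BubR1, was at 6.14 and 6.43 in the BubR1 H/H lines and at 7.81 and 8.51 in their partners. The CDC20 AAA/AAA alteration need not change Cdc20 level, which was 10.03 there and 10.83 in its partner, so that value does not check the label. Cdc20 was also lower in the unstable line of pair 9938 (10.34 against 11.15), and was at 10.74 and 10.85 in pair 9515. All 15 measured fibroblast markers were tested, none was called among pairs or between groups, and their summed level was 16.16 to 16.33. The sum weighs the highest markers most and can hide spread in others. Dcn was at 9.68, 8.28, 10.31, 9.72, 10.55 and 10.72, lowest in pair 9515 (F test adjusted p = 0.114 by limma). Pair 9938 also stood apart in sex pattern, with Xist at 10.70 and 11.16 against 2.24 to 2.94 in the other 4 lines, and Eif2s3y at 2.07 and 2.20 against 11.25 to 11.71. Of 14 measured macrophage and leukocyte markers 13 were tested and 10 differed among pairs, and 1 of the 14 was under log2 4 on all arrays. Their summed level was 12.52 and 12.97 in pair 9515, 14.90 and 14.79 in pair 9938, and 14.06 and 14.83 in pair 10074, so it was lowest in both lines of pair 9515. In such bulk RNA fewer cells of a type and less RNA per cell cannot be told apart.

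For orientation, RefSeq promoter windows of GRCm38.p6 are shown for the 4 Hox genes that both differed among pairs and have an entry. Each is the 250 bases before the gene start, 5′ to 3′ on the gene's strand, with every CpG in capitals.
Hoxd10, chr2:74691641-74691890, plus strand: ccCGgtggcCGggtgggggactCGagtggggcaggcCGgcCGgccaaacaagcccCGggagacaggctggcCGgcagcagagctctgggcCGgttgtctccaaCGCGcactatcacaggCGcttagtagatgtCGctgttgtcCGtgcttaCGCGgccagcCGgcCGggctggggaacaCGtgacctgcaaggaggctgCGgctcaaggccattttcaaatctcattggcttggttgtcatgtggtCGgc
Hoxb4, chr11:96318017-96318266, plus strand: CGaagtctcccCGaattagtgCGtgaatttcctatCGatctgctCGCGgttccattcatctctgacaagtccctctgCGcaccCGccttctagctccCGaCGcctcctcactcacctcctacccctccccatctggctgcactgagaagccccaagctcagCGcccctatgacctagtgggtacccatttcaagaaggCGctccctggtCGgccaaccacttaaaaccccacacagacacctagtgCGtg
Hoxa3, chr6:52213068-52213317, minus strand: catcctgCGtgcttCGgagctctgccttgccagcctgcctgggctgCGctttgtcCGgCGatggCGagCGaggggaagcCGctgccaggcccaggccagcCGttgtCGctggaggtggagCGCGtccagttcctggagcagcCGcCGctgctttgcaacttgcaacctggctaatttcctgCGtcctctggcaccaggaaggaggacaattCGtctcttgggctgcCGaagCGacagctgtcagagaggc
Hoxa5, chr6:52204588-52204837, minus strand: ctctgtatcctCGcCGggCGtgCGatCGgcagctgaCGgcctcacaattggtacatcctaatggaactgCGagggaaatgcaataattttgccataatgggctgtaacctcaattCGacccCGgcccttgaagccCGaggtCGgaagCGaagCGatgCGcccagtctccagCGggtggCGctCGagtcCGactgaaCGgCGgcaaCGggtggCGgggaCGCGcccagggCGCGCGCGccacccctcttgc

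The windows hold 20, 14, 18 and 28 CpGs in that order. Over the 20 windows found for 18 members the median was 13, with a range of 2 to 35, against a median of 6 over 32851 windows of all genes. Median GC content was 59.2% in the Hox windows and 52.4% in all. A search of both strands for TATAAA (the TATA box), TTTATG (a core of the kind bound by posterior HOX proteins) and TGATTNAT (a PBX-HOX composite site) found none of the 3 in these 4 windows. TATAAA was in 2 of the 20 Hox windows (Hoxa10 and Hoxd13; 10% against 12.4% of all windows), TTTATG in 2 (Hoxa7 and Hoxd11; 10% against 10.8%) and TGATTNAT in 2 (Hoxa2 and Hoxd11; 10% against 2.82%). The 2 TATAAA matches of Hoxd13 lie on opposite strands and overlap, and a match is a string of letters and not a site shown to be bound.

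The lines carried Hox genes at log2 4 or more in all 4 clusters. The mean over 6 lines reached log2 4 for 21 of 31 members, among them 6 of 9 in Hoxa, 6 of 9 in Hoxb, 5 of 6 in Hoxc and 4 of 7 in Hoxd. By position these were 3 of the 6 measured members of paralog groups 1 to 3, 9 of 12 in groups 4 to 8, and 9 of 13 in groups 9 to 13. The 10 other members stayed under log2 4 in every line. They were Hoxa2 (2.78 to 3.88), Hoxa4 (3.00 to 3.45), Hoxa13 (2.63 to 2.84), Hoxb1 (1.89 to 2.14), Hoxb7 (2.07 to 2.20), Hoxb13 (3.03 to 3.89), Hoxc5 (3.22 to just under 4.0), Hoxd1 (1.68 to 2.55), Hoxd12 (2.21 to 2.57) and Hoxd13 (2.47 to 3.16). Among the paralog 13 genes, which act at the far end of the limb and body axis, Hoxc13 alone reached log2 4 in any line. Each low value comes from 1 probe set (2 for Hoxa4), so a gene given as low is low by that probe set. For Hoxb7 a further probe set, which the annotation gives to both Hoxb7 and Hoxb8 and which was therefore not used, was at 4.56, 4.41, 4.99, 3.75, 5.42 and 4.70. It was over log2 4 in 5 of the 6 lines, and how much of it is Hoxb7 cannot be told.

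**Figure D1:**
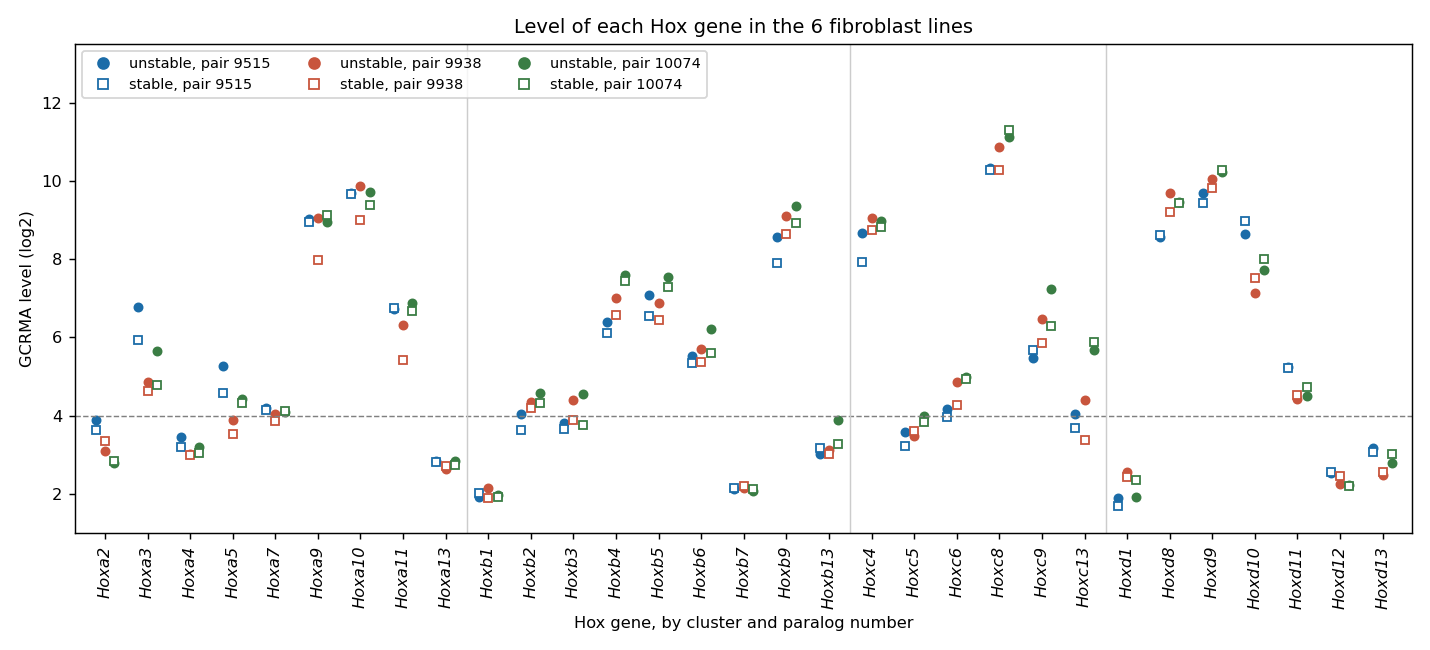
GCRMA level (log2, vertical axis) of the 31 Hox genes, ordered by cluster and paralog number, in the 6 lines; filled circles are unstable and open squares stable lines, colours mark pairs, and the dashed line is log2 4. The mean of 21 genes is at or above log2 4, and in Hoxa9, Hoxa10 and Hoxa11 the stable line of pair 9938 lies below the other 5 lines.

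The first comparison asks how Hox levels spread between pairs of lines. The moderated F test for the 3 pairs, with stability in the model, called 7 of the 20 tested members: Hoxa3, Hoxa5, Hoxb4, Hoxb5, Hoxb9, Hoxc13 and Hoxd10. Over all genes it called 497 of 8382, or 5.93%. In 16 of the 21 members with a mean of at least log2 4, the range of the 3 pair means exceeded the largest gap within a pair, against 49% of the 8341 genes at that level. The median range of pair means was 0.86 in those members and 0.27 in all such genes, and the median largest gap within a pair was 0.62 and 0.28. Pair 10074 differs from the others in the mutated locus of its unstable line, and pair 9938 in sex pattern. These and the macrophage marker level above cannot be told apart from the pair. The stable lines of all 3 pairs were wild type at both loci, so the locus does not separate them.

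Hoxd10, which patterns the lumbar cord and hindlimb, was at 8.63, 8.98, 7.14, 7.51, 7.73 and 8.0. Both lines of pair 9515 lay above the other 4, and the 3 pairs did not overlap. It was 2.80-fold lower in pair 9938 than in pair 9515 (log2 difference -1.48 ± 0.10 SE, limma adjusted p = 0.0092), and 1.93-fold lower in pair 10074 (adjusted p = 0.018). Its neighbour Hoxd11, which shapes the forearm together with Hoxa11, was at 5.25, 5.21, 4.43, 4.52, 4.49 and 4.74. It fell by 0.76 ± 0.12 (SE) from pair 9515 to pair 9938 (limma adjusted p = 0.0332), while its F test over the 3 pairs just missed the threshold (adjusted p = 0.0504). Hoxd8 and Hoxd9, the other 2 members of the cluster above log2 4, had both lines of pair 9515 below the other 4. Hoxd8 was at 8.57, 8.61, 9.68, 9.21, 9.47 and 9.44, lowest in both lines of pair 9515 (F test adjusted p = 0.0597 by limma). Hoxd9, an upper limb gene, was at 9.68, 9.43, 10.06, 9.82, 10.22 and 10.27 and was called between pairs 10074 and 9515 only (0.69 ± 0.12 SE, limma adjusted p = 0.0492).

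In the Hoxa cluster the called members were anterior and central ones. Hoxa3, which is needed for the thymus and parathyroid, was at 6.78, 5.94, 4.87, 4.62, 5.65 and 4.77, and both lines of pair 9515 lay above the other 4. It was 3.07-fold lower in pair 9938 than in pair 9515 (log2 difference -1.62 ± 0.19 SE, limma adjusted p = 0.0177) and 2.22-fold lower in pair 10074 (adjusted p = 0.0403). Its other probe set, at 5.80, 5.77, 5.05, 5.10, 5.37 and 4.91, had the same order of pairs with a smaller spread. Hoxa5, which acts in the lung and the neck to chest transition, was at 5.26, 4.57, 3.89, 3.53, 4.42 and 4.33, and was 2.31-fold lower in pair 9938 than in pair 9515 (limma adjusted p = 0.0244). Both lines of pair 9938 were under log2 4, so this fold rests on low values. Hoxa7, a trunk gene, was at 4.20, 4.14, 4.04, 3.87, 4.08 and 4.11. The posterior members were not called among pairs. Hoxa9, a regulator of blood stem cells and limb, was at 9.03, 8.94, 9.04, 7.98, 8.95 and 9.14. Hoxa10, known for the uterus and lumbar spine, was at 9.68, 9.67, 9.87, 8.99, 9.71 and 9.38. Hoxa11 was at 6.72, 6.75, 6.32, 5.41, 6.88 and 6.67. In these last 3 the stable line of pair 9938 alone was low, by 1.06, 0.88 and 0.91 below its partner. The second Hoxa9 probe set, at 3.80 to 4.13, did not show it (4.08 and 4.13 in pair 9938).

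In the Hoxb cluster the called members were higher in pair 10074. Hoxb4, a gene of neck patterning and blood stem cells, was at 6.39, 6.11, 7.00, 6.57, 7.60 and 7.44, with no overlap between the 3 pairs. It was 2.41-fold higher in pair 10074 than in pair 9515 (log2 difference 1.27 ± 0.11 SE, limma adjusted p = 0.013). Its other probe set stayed under log2 4, at 2.84 to 3.26. Hoxb5, active in the gut nervous system and lung, was at 7.08, 6.54, 6.87, 6.45, 7.55 and 7.28. Pair 10074 was higher in both lines, and the F test gave an adjusted p of 0.047 (limma), while none of the 3 contrasts between 2 pairs was called. Hoxb9, which with its paralogs patterns the ribs, was at 8.56, 7.91, 9.10, 8.63, 9.36 and 8.93. Both lines of pair 9515 lay below the other 4, and it was higher in pair 9938 (0.63 ± 0.11 SE, limma adjusted p = 0.0458) and in pair 10074 (0.91 ± 0.11 SE, adjusted p = 0.0234). Hoxb2, a hindbrain gene, was at 4.03, 3.62, 4.34, 4.19, 4.59 and 4.33. It was called between pairs 10074 and 9515 only (0.64 ± 0.11 SE, limma adjusted p = 0.0497). Hoxb3, also of the hindbrain, was at 3.81, 3.65, 4.39, 3.89, 4.54 and 3.77 and reached log2 4 on 2 arrays, so it was not tested. Hoxb6, of the trunk mesoderm, was at 5.52, 5.35, 5.69, 5.38, 6.21 and 5.59 and was not called.

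Hoxc13, which controls hair and nail keratins, had the widest range of any member, 2.50, or 5.67-fold. It was at 4.03, 3.69, 4.39, 3.38, 5.67 and 5.88, high in both lines of pair 10074, and at 4.39 or less in the other 4 lines. The highest value, 5.88, was in the stable line, which is CDC20 +/+. The stable lines of pairs 9515 and 9938 were under log2 4. It was 3.76-fold higher in pair 10074 than in pair 9515 (log2 difference 1.91 ± 0.29 SE, limma adjusted p = 0.0369), and 3.71-fold higher than in pair 9938, which was not called (adjusted p = 0.1). Hoxc6, a thoracic gene, was at 4.18, 3.97, 4.86, 4.28, 4.99 and 4.94 and was called between pairs 10074 and 9515 only (0.89 ± 0.16 SE, limma adjusted p = 0.0492). A second Hoxc6 probe set had the same order of pair means, and in the third the lines stayed within 4.15 to 4.59. Hoxc4, Hoxc8 and Hoxc9 were not called. Hoxc4, of the neck and upper chest, was at 8.67, 7.92, 9.04, 8.75, 8.97 and 8.82, and Hoxc8, of the chest and the forelimb motor pool, at 10.33, 10.29, 10.86, 10.27, 11.12 and 11.31. Hoxc9, which sets thoracic motor neuron identity, was at 5.46, 5.67, 6.48, 5.86, 7.24 and 6.29.

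**Figure D2:**
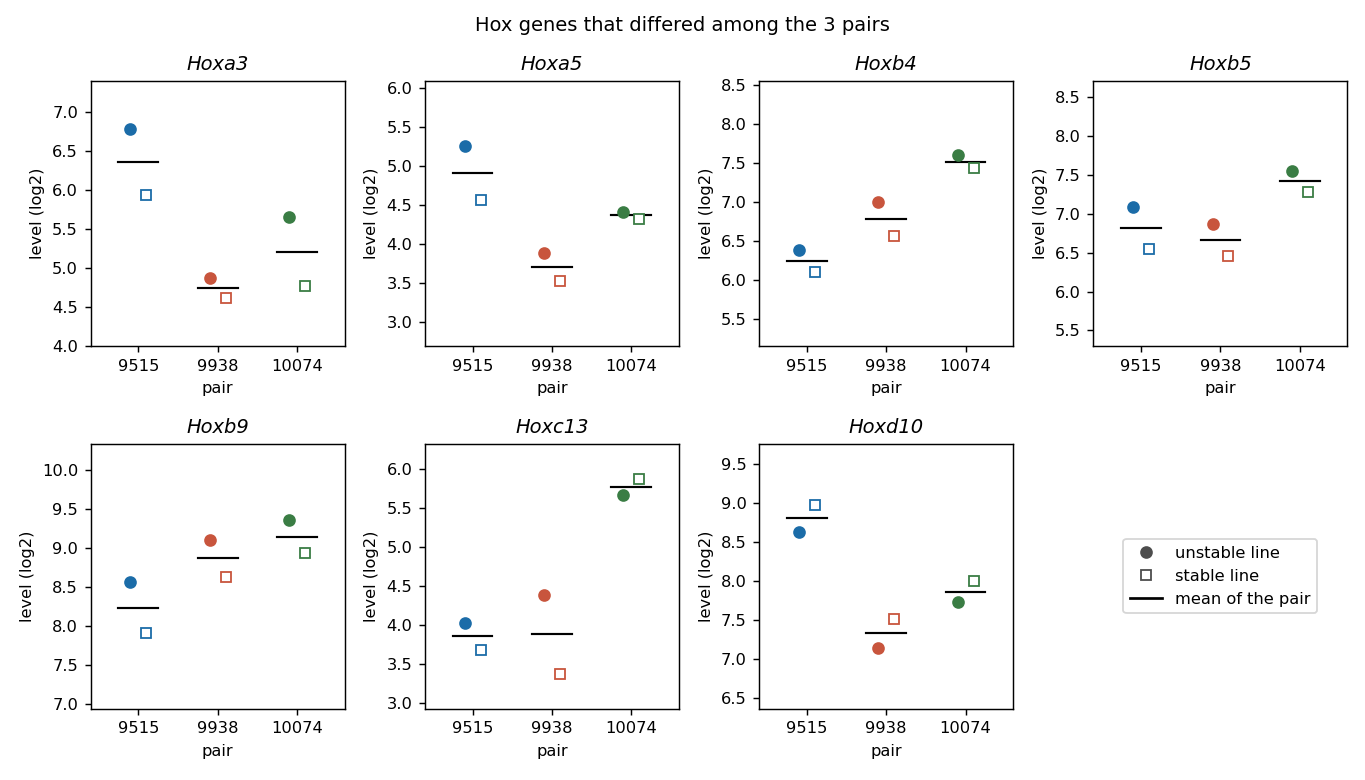
Level (log2, vertical axis) of the 7 Hox genes called by the F test among pairs, 1 panel each with the same span, by pair (horizontal axis); circles are unstable lines, squares stable lines and bars the mean of the pair. Hoxa3, Hoxa5 and Hoxd10 are highest in pair 9515, and Hoxb4, Hoxb5, Hoxb9 and Hoxc13 in pair 10074.

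By contrast between 2 pairs, 5 members were called for 9938 against 9515 (5.43% of all genes), 8 for 10074 against 9515 (5.2% of all genes) and 0 for 10074 against 9938 (0.0477%, which is 4 genes; 8 members and 1829 genes had an unadjusted p under 0.05). The 3 contrasts share lines, so their calls are not independent. Both lines of pair 9515 lay above the other 4 in 5 of the 21 members at log2 4 (13.1% of genes at that level) and below them in 8 (10.6%). The median difference had a different sign by cluster. From pair 9515 to pair 9938, members of Hoxa with a mean of at least log2 4 had a median difference of -0.67, with 0 of 6 higher, those of Hoxb 0.43 with 5 of 6 higher, those of Hoxc 0.49 with 5 of 5 higher, and those of Hoxd -0.19 with 2 of 4 higher. The Hoxa median was -1.0 between the stable lines of these pairs, with 0 of 6 higher, and -0.28 between the unstable lines, with 2 of 6 higher. For Hoxb the medians were 0.35 and 0.42, for Hoxc 0.19 and 0.53, and for Hoxd -0.15 and -0.22. From pair 9515 to pair 10074 the medians over pair means were -0.10 for Hoxa, 0.62 for Hoxb, 0.91 for Hoxc and 0.04 for Hoxd. From pair 9938 to pair 10074 all 21 members were higher, with a median of 0.40, against 4400 of 8341 genes. Between the stable lines 20 of 21 were higher in 10074, and between the unstable lines 17 of 21, against 53.4% and 51.1% of genes. Genes of 1 cluster are no replicates, so these counts carry no test.

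**Figure D3:**
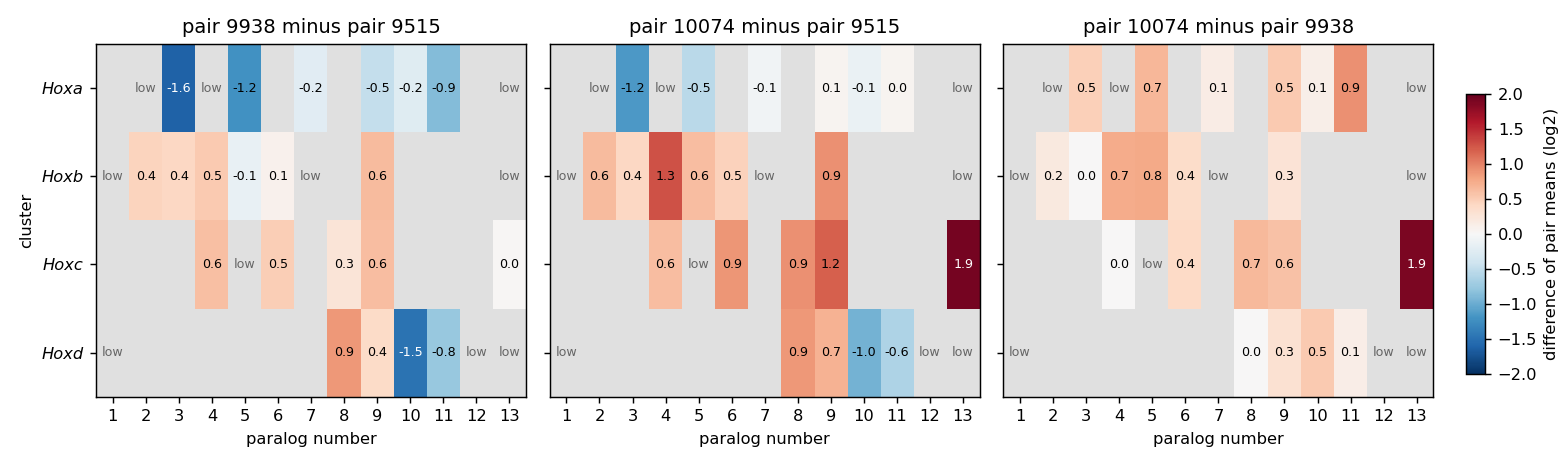
Difference of pair means (log2, colour and printed value) for each contrast of 2 pairs, by cluster (rows) and paralog number (columns); 'low' marks a mean under log2 4 and an empty grey cell a gene not measured here or not in the mouse cluster. Hoxa3, Hoxa5, Hoxd10 and Hoxd11 are below 0 in both contrasts against pair 9515, while Hoxc members are at or above 0.

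The calls rested on pair 9515. Without its unstable or without its stable line, 0 Hox genes were called by the F test and 1 gene of 8382. Leaving out any of the other 4 lines left 508 to 559 genes and 4 to 9 Hox genes called, with 4 without the stable line of pair 10074. Hoxa3, Hoxb4 and Hoxd10 were called in each of those 4 fits. Without stability in the model, Hoxd10 alone of the members was called, among 249 genes.

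The study's own comparison is of chromosomally unstable with stable lines. No Hox gene was called, and none of 8382 genes was (0%; limma without a block, 359 genes at an unadjusted p under 0.05, 0 of them Hox genes). Of the 21 members with a mean of at least log2 4, 19 were higher in the unstable lines on average, against 47.8% of genes at that level, and the median difference was 0.37 against -0.01. Over all 31 members 24 were higher and the median was 0.19. In 11 of the 21 the unstable line was higher in each of the 3 pairs (16.9% of genes), and Hoxd10 was the single member of the 21 lower in each. For Hoxa3 and Hoxc6, both among the 11, other probe sets were mixed in sign. That of Hoxa3 had 0.04, -0.05 and 0.46 in pairs 9515, 9938 and 10074. Those of Hoxc6 had 0.08, 0.38 and -0.01, and -0.28, 0.44 and 0.0. Hoxb4, also among the 11, has a second probe set under log2 4 in every line, with differences of -0.0, 0.1 and 0.14. In pairs 9515, 9938 and 10074 the medians over the 21 were 0.17, 0.44 and 0.15. The median depended on single lines: it dropped to 0.11 when the stable line of pair 9515 was left out, to 0.14 when the unstable line of pair 10074 was, and to 0.17 with pair 9938 left out. Where a single line was left out its partner was kept, so differences between pairs enter those medians.

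With the pair number as a block, which compares each line with its partner, again 0 genes were called (smallest adjusted p 0.262). At an unadjusted p under 0.05 that fit had 9 of 20 members, against 12.2% of genes: Hoxa3, Hoxa5, Hoxb2, Hoxb4, Hoxb5, Hoxb6, Hoxb9 and Hoxc4 higher and Hoxd10 lower. None of the 9 passed after adjustment. The other Hoxa3 probe set was mixed in sign, and the other Hoxb4 probe set was low, as given above. Hoxb9 had the smallest of these, with differences of 0.66, 0.47 and 0.43 in the 3 pairs and a mean of 0.52 (SE 0.09 with the block and 0.32 without; adjusted p = 0.262 and 0.999 by limma). Hoxb5 had 0.54, 0.42 and 0.27, and Hoxd10 had -0.35, -0.37 and -0.27, and neither passed after adjustment (0.276 and 0.287 with the block). Hoxa10 was the 1 member in which every unstable line lay above every stable line (3.61% of genes), by as little as 0.01 between the closest lines. Its mean was 9.75 ± 0.10 in the unstable and 9.35 ± 0.34 (SD, n = 3 lines) in the stable lines. In the 6 Hoxb members at log2 4 the unstable line was higher in every pair, with a median of 0.39. In Hoxa and Hoxc the pairs varied more, with medians of 0.08, 0.62 and 0.15 and of 0.21, 0.59 and 0.05 in pairs 9515, 9938 and 10074. Hoxd had a median of 0.02.

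**Figure D4:**
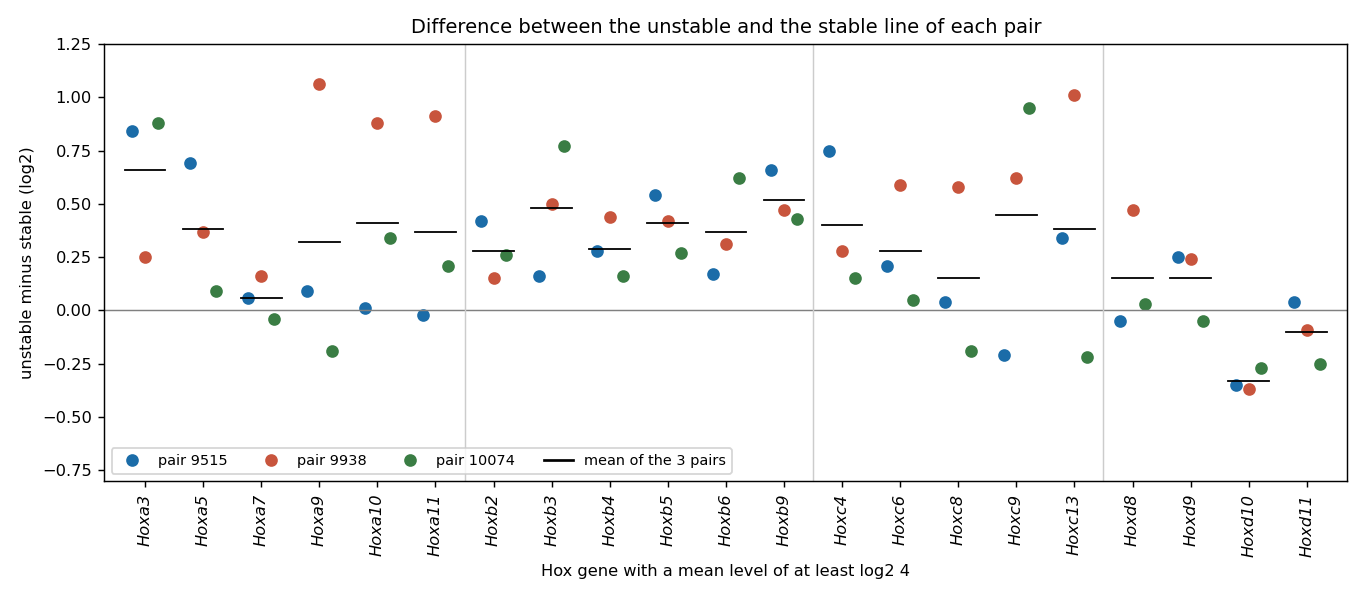
Difference between the unstable and the stable line (log2, vertical axis) of each pair for the 21 Hox genes with a mean of at least log2 4; points are pairs and bars the mean of the 3 pairs. Hoxb members lie above 0 in all 3 pairs and Hoxd10 below 0, while pair 9938 gives the highest value in Hoxa9, Hoxa10, Hoxa11 and Hoxc13.

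The direction turned with 1 line for several members. The difference was 0.32 for Hoxa9 and 0.37 for Hoxa11. Without the stable line of pair 9938, whose partner was kept, the differences were -0.03 and -0.07. No macrophage, leukocyte or fibroblast marker was called in this contrast. Of 14 macrophage and leukocyte markers 0 were higher in the unstable lines on average, with a median difference of -0.23 in pair 9515, 0.10 in pair 9938 and -1.07 in pair 10074. Of 15 fibroblast markers 7 were higher, with a median of -0.03. Their part in the Hox differences was not tested. The CDC20 effect was set against the BubR1 effect in a model with pair and a stability by locus term. No Hox gene was called and no gene of 8382 (limma, smallest adjusted p 0.306; 476 genes and 0 Hox genes at an unadjusted p under 0.05). The largest difference among members was Hoxc13, whose unstable minus stable value was -0.22 in the CDC20 pair and 0.34 and 1.01 in the BubR1 pairs (difference -0.89 ± 0.34 SE, adjusted p = 0.891). There was 1 CDC20 line per group. On simulated data this fit called none of the changes put in when gene variances were drawn from the fitted prior of limma, and with the posterior variances it called most of the larger ones along with too many false ones. So 0 calls here does not show that the effects were alike.

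The partners and regulators of Hox genes were read against the 5.93% of all genes called among pairs. By list, 4.55% of tested Polycomb genes (1 of 22), 14.3% of MLL and demethylase genes (1 of 7) and 18.2% of retinoic acid genes (2 of 11) were called, and counts this small set no list apart. None of the 8 tested of 10 measured TALE cofactors was called among pairs or between groups. Pbx2, a DNA-binding partner of HOX proteins, was at 9.71, 9.65, 9.67, 9.60, 9.39 and 9.32. Meis1, a further partner, was at 6.62, 6.37, 7.27, 6.67, 6.66 and 6.60. Of 22 tested Polycomb genes, which silence Hox clusters, Scmh1 alone differed among pairs (8.15, 8.36, 7.41, 7.60, 7.68 and 7.86; F test adjusted p = 0.039 by limma). Ezh2, the H3K27 methyltransferase, had its unstable line below its stable line in all 3 pairs (9.41, 9.50, 9.31, 9.91, 8.93 and 9.59), without passing the test (adjusted p = 0.999). So had 1612 of the 8341 genes with a mean of at least log2 4. Pcgf2, also of Polycomb, was higher in all 3 (by 0.14, 0.24 and 0.34), again without passing. Of 24 measured Polycomb genes 12 were higher and 12 lower in the unstable lines on average. Of 7 tested genes of the MLL complexes and H3K27 demethylases, Kdm6a was called among pairs (adjusted p = 0.036 by limma). It was at 8.79, 8.68, 9.50, 9.14, 8.55 and 8.18, highest in pair 9938. Kdm6a is an X-linked gene that escapes inactivation, and pair 9938 is the pair with Xist. A part of sex in this difference was not tested and cannot be told apart from the pair. Of 11 tested retinoic acid genes 2 were called. Crabp2, which carries retinoic acid to its receptors, was at 11.47, 11.42, 9.42, 9.79, 9.38 and 9.23 (adjusted p = 0.014 by limma). Aldh1a1, which makes retinoic acid, was at 5.07, 4.88, 3.68, 3.79, 4.0 and 4.16 (adjusted p = 0.026 by limma). Both were high in pair 9515. The 1 tested gene of the axial signal and Cdx list was not called, and 11 of its 12 measured genes were under log2 4 in every line. With any 1 of the 6 lines left out, 0 Polycomb genes were called among pairs. The MLL list had 1 called gene when pair 9938 lacked its unstable line, and 0 when any other line was left out. The retinoic acid list had 0 called genes without either line of pair 9515 and 2 without any other line. Between unstable and stable lines none of these lists had a called gene, and the median differences over measured genes were 0.05 for the TALE cofactors, 0.01 for Polycomb, -0.09 for MLL and 0.01 for retinoic acid, against -0.01 for all measured genes. The genes that flank the clusters were not called among pairs: of the nearest 2 measured genes on each side, 16 in all, 13 were tested and 0 were called.

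Transcription factors of position outside the clusters were also called among pairs. Of 45 measured 22 were tested and 13 were called, or 59.1% of those tested, against 35% of tested Hox genes and the 5.93% of all genes given above. The list was chosen with earlier results of these data known. The filter also admits a gene through the lines where it is high, as for Meox1 below. This share is therefore a description and no test of the list. Without either line of pair 9515 none was called. Foxc1, of head and skeletal mesenchyme, was at 9.63, 9.40, 6.79, 7.36, 6.95 and 6.58. Meox1, of the somites, was at 5.60, 4.59, 4.34, 3.55, 3.97 and 2.99. En1 (6.17, 6.12, 7.42, 6.75, 7.74 and 7.58), of the ventral limb and trunk dermis, had both lines of pair 9515 below the other 4.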

How the data were processed

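Transcript levels of 6 fibroblast lines, 3 unstable and 3 stable by the labels, were read from 1 table of 22626 probe sets, and 0 of its value columns were left unused. The deposited values are log2 levels from 0.922 to 14.393, made by the authors with R 2.15.3 and GCRMA 2.28.0, per the submitters' processing notes. GCRMA corrects background, normalizes arrays to each other and summarizes probe sets, so overall differences in brightness are already removed. RNA was amplified before labelling with biotin, per the labels' protocols. Scanner intensities were not analysed here.

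Gene names came from the platform annotation. Of the probe sets 20380 had 1 symbol and were used, 691 had several and 1555 were not listed with a symbol. Each of 12393 genes took its probe set of highest mean, and 8382 reached log2 4 on at least 3 arrays. That filter decides which members are tested, so medians and counts use members by their mean over all 6 arrays.

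The limma package, version 3.58.1 under R 4.3.3, fitted each gene (lmFit, then eBayes). Tests were two-sided, Benjamini-Hochberg adjustment ran over all genes tested, and the threshold was 0.05. The fits were tested on simulated data. A first simulation used limma's posterior variances, and there the pair F test and the stability by locus term made more false calls than the threshold allows. A second, made after seeing that, drew variances from limma's fitted prior. False calls of the pair F test were then near the threshold, and the locus term made no call. Calls among pairs may therefore be liberal, most of all those just under the threshold. They were unstable against stable without a block, the pair factor with stability in the model (2 residual degrees of freedom), 3 contrasts between pairs, and a stability by locus term. Deviations from group means correlated across genes at 0.812, 0.681 and 0.602 for same-numbered lines of pairs 9515, 9938 and 10074, and at -0.673 to 0.153 for others, so the title numbers were taken to pair the lines. Summed marker levels are the log2 of the sum of unlogged values.

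The members, gene lists, tests and alternatives were chosen with earlier results of these data known. Text names every member, with values in each line for those whose mean reached log2 4. From the lists it names some genes with small p-values and others picked for their pattern across the lines, and not every called gene. RefSeq promoter windows matched 18 of 31 members by symbol. Protein sequences were not used here.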

Additional observations from a re-analysis of the deposited data

How the results depend on the processing

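Between unstable and stable lines 0 Hox genes were called under every alternative run, and 0 genes under all but 1 of them: no filter, a stricter filter (log2 6), probe set means in place of the highest, quantile normalization, array weights, an eBayes trend with robust prior, the replicate block, and lines or pairs left out in turn. The exception, no filter with the unstable line of pair 10074 left out, called 1 gene of 12393 (adjusted p = 0.00682 by limma). The pair number as a replicate block also changed no call of any list (0 called). The fit of the CDC20 against the BubR1 effect gave 0 calls with and without the block. Leaving out a line leaves that fit no residual degree of freedom or no estimate, so this was not run. The cause of the changes below was not tested. By design, stricter filters test fewer genes, and a single line left out leaves its partner unmatched.

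Calls among pairs were 497 genes and 7 Hox genes. The trend gave 953 genes, no stability term 249 genes and 1 Hox gene, and the stricter filter 4 Hox genes. Leaving out single lines gave 1 to 559 genes and 0 to 9 Hox genes. For 9938 against 9515 (455 and 5), single lines left out gave 1 to 562 genes and 0 to 4 Hox genes, and the stricter filter and no stability term 2 Hox genes each. For 10074 against 9515 (436 and 8) the trend gave 759 genes and no stability term 223 genes and 1 Hox gene, with 0 to 630 genes and 0 to 10 Hox genes when single lines were left out. For 10074 against 9938 (4 and 0) no filter gave 12 genes, the stricter filter 21, probe set means 8, no stability term 8, the trend 218 with 1 Hox gene (Hoxc13), and single lines left out 2 to 13.

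The median unstable minus stable difference over all 31 members (0.19) was 0.34 with the filter of log2 4 on 3 arrays (chosen after seeing the data), which leaves 20 members. The values of 0.35 with quantile normalization and 0.33 with array weights cover 20 filtered members too, and 0.34 with the stricter filter covers 12, so these moves come with dropping low members. With all 31 kept it was 0.10 without pair 9938 and 0.08 to 0.42 without single lines. Over members with a mean of at least log2 4 (0.37) it was 0.17 without pair 9938 and 0.11 to 0.49 without single lines. In no setting did either turn negative.

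Among the lists, Polycomb calls (1) were 2 with probe set means, 0 with no stability term and 0 to 0 without single lines, MLL calls (1) were 0 and 0 to 1, and retinoic acid calls (2) were 1 with the stricter filter and 0 to 2 without single lines. Regional factor calls (13) were 8, 7 (no stability term) and 0 to 13. Genes beside the clusters (0) had 1 call with the trend. Median differences moved for the Polycomb list (0.01; -0.02 to 0.06 without single lines), the axial list (-0.04; -0.10 with array weights, 0.04 without pair 9938, -0.04 to 0.02) and the regional list (0.02; -0.08 without pair 9515, -0.11 to 0.16).

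The unstable minus stable sign turned for 10 members when single lines were left out, with ranges of Hoxa7 -0.02 to 0.11, Hoxa9 -0.03 to 0.55 (-0.05 without pair 9938), Hoxa11 -0.07 to 0.60, Hoxb4 -0.01 to 0.66, Hoxc8 -0.03 to 0.49 (-0.07 without pair 9938), Hoxc13 -0.11 to 1.16, Hoxd8 -0.09 to 0.49 (-0.01 without pair 9938), Hoxd9 -0.06 to 0.36, Hoxd10 -0.73 to 0.08 and Hoxd11 -0.36 to 0.09. These fits had no block, so a line left out leaves its partner in and differences between pairs enter the value. Compared within pairs, Hoxb4 (0.28, 0.44 and 0.16) and Hoxd10 (-0.35, -0.37 and -0.27) kept their sign in all 3. For single members, calls by the F test among pairs were lost 29 times and gained 14 times over the alternatives. Precision is limited by there being 6 arrays.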

Other observations

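Of 4 measured markers of cartilage and bone, 3 were tested and 2 were called among pairs. Col2a1, the main collagen of cartilage, was at 7.73 and 7.12 in pair 9515, 3.47 and 4.47 in pair 9938, and 3.20 and 3.05 in pair 10074 (limma F test among pairs, adjusted p = 0.018). Acan, the large proteoglycan of cartilage, was at 6.11, 6.34, 3.34, 4.36, 2.90 and 3.39 in the same order (adjusted p = 0.012 by limma). Col2a1 and Acan reached log2 4 only in pair 9515 and in the stable line of pair 9938. They passed the filter through the lines where they were high, so their p-values are a description and no test. Sox9, the regulator of both, was not called among pairs. Its values were 7.60, 7.56, 7.99, 8.46, 8.22 and 8.22, lowest in pair 9515, where both others were highest. Sp7, a regulator of bone, was too low to be tested, at 3.23, 3.58, 3.41, 3.68, 4.03 and 4.68, and was highest in pair 10074. Foxd1, a stromal factor of the kidney and face, had levels of 7.20 and 6.91 in pair 9515, while the remaining 4 lines had 2.85 to 4.54.

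Pax3, of the dorsal neural tube and muscle precursors, was at 5.21, 5.18, 4.88 and 5.87 in pairs 9515 and 9938. In pair 10074 it was at 3.02 and 2.97 (limma F test among pairs, adjusted p = 0.028). It passed the filter only through pairs 9515 and 9938, where it was high, so that p-value is a description and no test. Isl1, of motor neurons and hindlimb mesenchyme, had 4.84 to 5.19 in pairs 9515 and 9938 and 3.65 and 3.74 in pair 10074. Hoxc13 was highest in pair 10074, as described above. The antisense transcript Hoxa11os, which lies on the strand opposite Hoxa11, was at 6.01, 6.04, 5.23, 4.93, 5.54 and 5.82. As for Hoxa11, the stable line of pair 9938 was the lowest.

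Of 6 smooth muscle markers 4 were higher in the unstable lines, with a median of 0.03 and 0 called. Myh11, the smooth muscle myosin heavy chain, was higher in each unstable line than in its partner, by 0.59, 2.12 and 0.78 (mean 1.16 ± 0.36 SE, limma adjusted p = 0.999). The stable line of pair 9938, low in Hoxa9 to Hoxa11, also had the lowest Myh11, at 5.75 against 7.01 to 7.87.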
